A study of Mus musculus with 24 samples.

Results

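RNA of hippocampal nuclei that an antibody against the neuronal protein NeuN did not label (NeuN-) was compared between mice labelled DKO and mice labelled Mutyh-/-. The members are the libraries with these 2 labels, 6 of the 24 RNA libraries of the series, 3 DKO and 3 Mutyh-/-. All mice were males on a C57BL/6N background aged 6 months. Mutyh-/- mice carry a knockout of Mutyh and DKO mice carry knockouts of both Mutyh and Ogg1. The groups thus share the Mutyh-null background, and the comparison asks what loss of Ogg1 does on it. Loss of Ogg1 cannot be told apart from other differences between the mice of these genotypes. WT and Ogg1-/- mice, with 3 libraries each, give loss of Ogg1 on the WT background, and the same genotypes were sorted into NeuN+ nuclei, the neurons. The methods give nuclei of 3 animals pooled per genotype for this RNA but another number for the sort, while the statistics section speaks of replicates that are biological and independent, without naming the RNA libraries. How many animals stand behind each library is therefore unclear, and the p-values measure the spread between these samples. The Mutyh-/- libraries held 80734498, 81859063 and 77240297 counts and the DKO libraries 87940724, 60633583 and 60250937. Levels are given as CPM, counts relative to the library total with a TMM factor, which is not corrected for gene length and serves to compare samples within a gene.

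Ogg1 and Mutyh are DNA glycosylases, enzymes that cut a damaged or mispaired base out of DNA and so start base excision repair. Ogg1 removes 8-oxoguanine, a common product of guanine oxidation, where it pairs with cytosine. Mutyh removes the adenine that polymerases place opposite 8-oxoguanine. The nuclei without NeuN come mainly from oligodendrocytes, which make myelin, their precursors, astrocytes and microglia, with smaller numbers from vessels, meninges and the choroid plexus.

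Markers of the main cell types matched the label of the fraction. Summed over 23 markers of mature oligodendrocytes, the 6 NeuN- libraries held between 8312 and 11635 CPM, against 184 to 204 CPM in the 6 NeuN+ libraries of the same genotypes. The 20 astrocyte markers summed to 5063 to 6709 CPM against 639 to 728, and the 20 microglial markers to 1099 to 1423 against 101 to 106. The 18 neuronal markers ran the other way, with 1333 to 1617 CPM in NeuN- and 13239 to 13816 CPM in NeuN+. Neuronal RNA was thus low but not absent in the NeuN- nuclei. The sums of choroid plexus and ependyma markers overlapped between the fractions, with 24.9 to 294 CPM in NeuN- and 23.6 to 27.2 CPM in NeuN+. Each fraction had sequencing lanes of its own, and a lane effect cannot be told apart from the fraction.

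The targeted genes were read first. Ogg1, on chromosome 6 from 113326972 to 113335068 of GRCm38, had 6.45, 6.56 and 7.09 CPM in the 3 libraries labelled Mutyh-/- and 7.46, 7.75 and 6.14 CPM in the 3 labelled DKO. These values overlapped, with a log2 fold change of 0.09 (SE 0.09, adjusted p = 0.755). Here and below, adjusted p is from the quasi-likelihood test of edgeR after Benjamini-Hochberg correction. The SE is the absolute log2 fold change divided by the square root of the F statistic of that test. The RNA of Ogg1 therefore did not separate the groups, and the gene counts do not show which exons the reads came from. Mutyh, on chromosome 4 from 116807723 to 116819440, had 10.2, 10.5 and 10.1 CPM in the libraries labelled Mutyh-/- and 7.21, 8.75 and 10.1 in those labelled DKO (-0.25, SE 0.11, adjusted p = 0.439). Over 14 alternative settings of the processing, the log2 fold change of Mutyh ran from -0.37 to -0.13 and passed in 0 of them. In WT NeuN- nuclei it had 3.07, 2.85 and 2.60 CPM, so its RNA was higher, not lower, in the groups whose labels name it as lost. Below, a genotype stands for the libraries that carry its label, and directions are between those libraries. Camk1, a calcium- and calmodulin-dependent kinase whose gene overlaps the end of Ogg1 on the other strand, had 26.6, 25.4 and 28.1 CPM in Mutyh-/- and 21.8, 20.7 and 17.5 in DKO. All 3 DKO libraries lay below all 3 Mutyh-/- libraries, yet the log2 fold change of -0.42 (SE 0.08, adjusted p = 0.0668) did not pass the threshold. The counts of both genes are uncertain because of the overlap.

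By the quasi-likelihood test, few genes differed between DKO and Mutyh-/- in NeuN- nuclei. Most of those that did lay near each other in 3 places of the genome. Of 31863 genes tested, 39 were DEGs, defined by an adjusted p under 0.05 together with a log2 fold change beyond 0.5 in either direction, which is 0.122% of the genes. Of these, 9 were higher in DKO (0.0282%) and 30 were lower (0.0942%). The lower genes were mainly gene copies of chromosome 4, genes of chromosome 14, with the mitochondrial iron importer Slc25a37, and genes distal to Ogg1 on chromosome 6, with the adhesion protein gene Ninj2. The higher genes included Klri1 and Depp1 on chromosome 6 and, away from these places, Lama3 and Otc. By place, 12 DEGs lay within 20 Mb of Ogg1, 11 in a stretch of chromosome 4, 4 in a stretch of chromosome 14 and 10 elsewhere, and 2 had no position in the annotation used. For all 39, the 3 DKO libraries did not overlap the 3 Mutyh-/- libraries, as was so for 4270 of all genes tested (13.4%). At an unadjusted p under 0.05, 1846 genes were higher (5.79%) and 1661 lower (5.21%), and the median log2 fold change of all genes was 0.01. The number of DEGs rested on single libraries. It was 4 without Mutyh-/- replicate 1, 19 without Mutyh-/- replicate 2, 89 without Mutyh-/- replicate 3, 9 without DKO replicate 2 and 80 without DKO replicate 3. The 4 genes called without Mutyh-/- replicate 1 were Gm43965, Tex52, Klri1 and Gm13303. The likelihood ratio test gave 160 and DESeq2 gave 146, a test of all genes with a count gave 73, and a fit of the 6 libraries alone gave 2. With the stretches of chromosomes 4, 6 and 14 that hold more than 1 DEG left out, the likelihood ratio test still called 100 genes and DESeq2 96. Most calls of these 2 tests therefore lay outside those stretches.

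**Figure D1:**
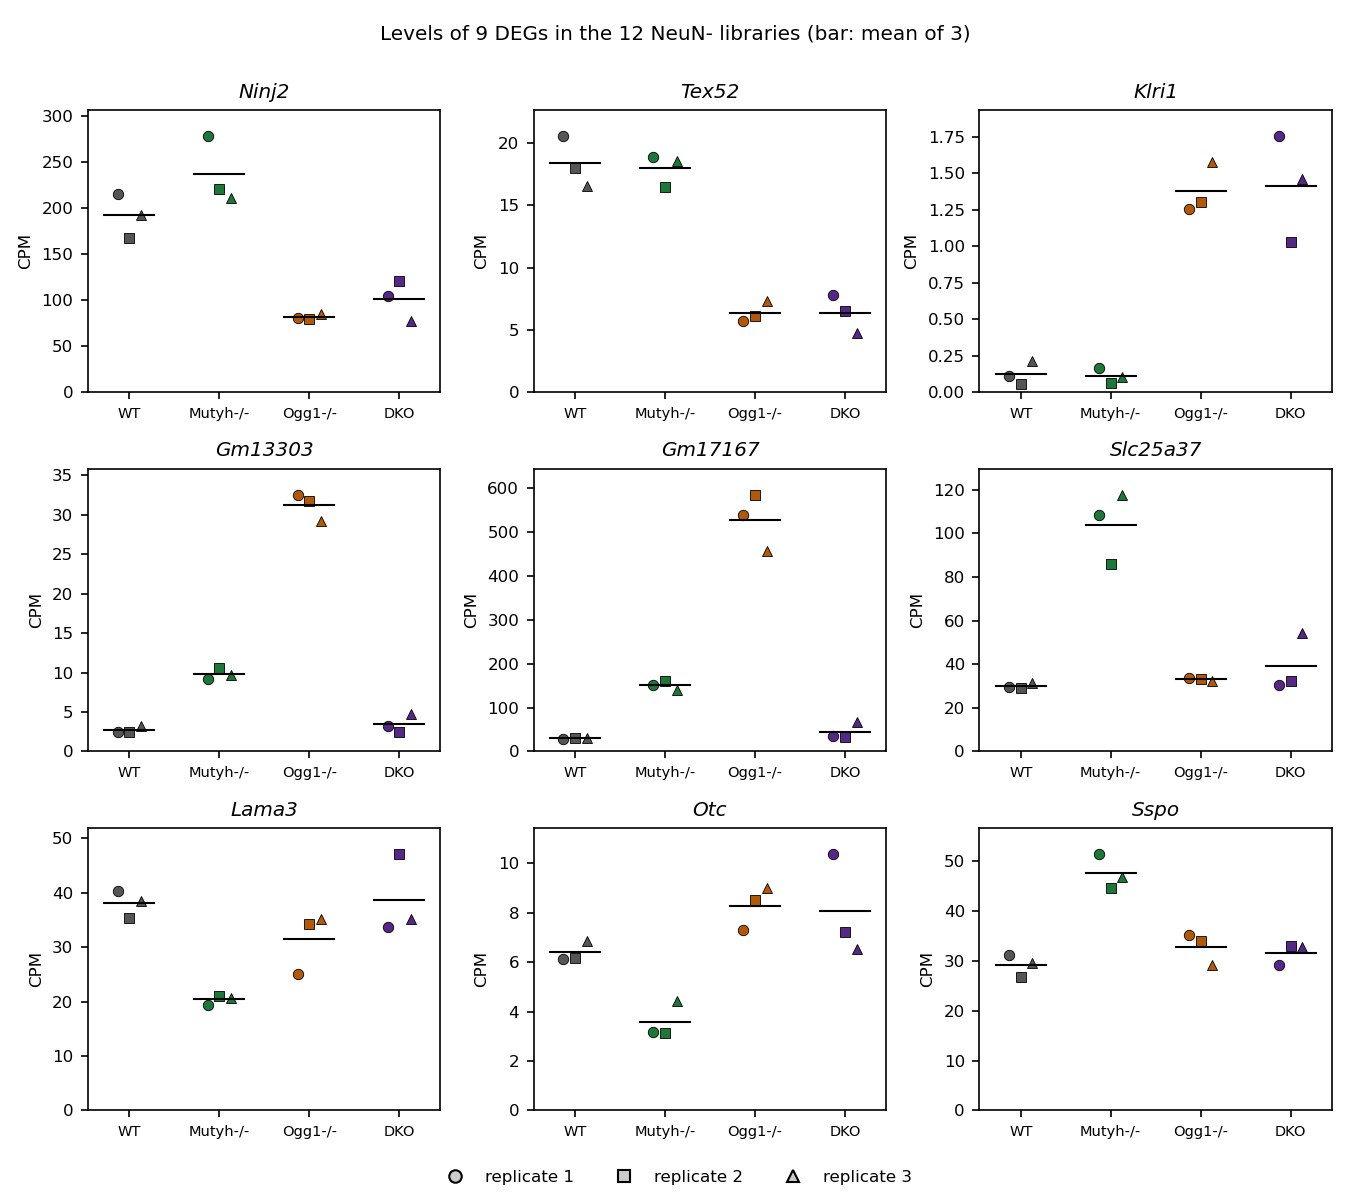
Level (CPM) of 9 DEGs in each of the 12 NeuN- libraries, by genotype; points are libraries, shaped by replicate, and bars are means of 3. Ninj2, Tex52 and Klri1 sit alike in Ogg1-/- and DKO, Gm13303 and Gm17167 are highest in Ogg1-/-, and Slc25a37 is high in Mutyh-/- with DKO replicate 3 at 54.5 CPM above the other 2 DKO libraries.

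The DEGs near Ogg1 all lay on its distal side, between 3.05 and 16.4 Mb away. Of 475 genes tested within 20 Mb of Ogg1, 359 lay on that side and 114 on the proximal side, and the DEGs are 2.53% of the 475. Ninj2, which encodes an adhesion protein of glia and nerve, lies on chromosome 6 from 120093350 to 120200339 and had 279, 220.4 and 211 CPM in Mutyh-/- and 105, 121 and 77.1 in DKO. It was the most abundant of the 12, and each DKO library held less than each Mutyh-/- library, with a log2 fold change of -1.23 (SE 0.15, adjusted p = 0.00850). In WT it had 216, 168 and 193 CPM and in Ogg1-/- 81.1, 79.7 and 85.3, so the libraries labelled as lacking Ogg1 were the low ones on either background. Without Mutyh-/- replicate 1 its adjusted p was 0.0603.

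Further along, Tex52, on chromosome 6 from 128375456 to 128385144, had 18.9, 16.4 and 18.6 CPM in Mutyh-/- and 7.80, 6.54 and 4.75 in DKO (-1.49, SE 0.15, adjusted p = 0.00501). Gm43965 (-2.14, adjusted p = 0.00501), Gm44596 (-0.94) and the antisense gene Gm15862 (-1.28) have spans that overlap that of Tex52. None of these 4 genes shared a 100-base stretch of transcript with another of them, but 82.7% of the stretches of Gm44596 also lie in the overlapping gene Nrip2, so its counts are uncertain. Gm43965 was called in each of 14 settings tried and Tex52 in 13. Next to them lies Rhno1, whose product takes part in signalling from stalled replication forks, with 8.74, 8.44 and 7.84 CPM in Mutyh-/- and 5.70, 5.83 and 5.83 in DKO (-0.53, adjusted p = 0.0143). Of its stretches, 18.2% lie in overlapping genes of the other strand, so its counts are uncertain as well. Its DKO libraries lay close together and below the others, but the change was small, and it did not pass without Mutyh-/- replicate 1 (adjusted p = 0.111), Mutyh-/- replicate 2 (0.0612), DKO replicate 1 (0.0508) or DKO replicate 2 (0.0771). Gm44596 and Gm15862 did not pass without Mutyh-/- replicate 1 (0.0603 and 0.0652) or DKO replicate 2 (0.0564 for both).

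Nearer to Ogg1, the Wnt ligand gene Wnt5b, at 6.10 Mb, had 26.6, 25.5 and 31.5 CPM in Mutyh-/- and 17.6, 17.7 and 19.5 in DKO (-0.61, SE 0.10, adjusted p = 0.0397). The zinc finger gene Zfp248, at 5.09 Mb, had 13.97, 14.1 and 14.02 CPM against 9.76, 9.96 and 9.69 (-0.52, adjusted p = 0.00794), with replicates that hardly varied in either group. Gm44237, at 3.05 Mb, was lower as well (-1.22), and so was the pseudogene Gm8774, at 15.5 Mb, with 33, 27 and 29 counts in Mutyh-/- and 2, 5 and 0 counts in DKO. The fitted log2 fold change of Gm8774 (-3.44, adjusted p = 0.0492) rests on these few counts. Leaving out Mutyh-/- replicate 1 ended the calls of Wnt5b, Zfp248, Gm44237 and Gm8774 (adjusted p = 0.158, 0.0536, 0.0644 and 0.235). Wnt5b and Gm8774 also did not pass without Mutyh-/- replicate 2 or 3 or DKO replicate 1 or 2, with adjusted p from 0.0514 to 0.155 for Wnt5b and from 0.0524 to 0.156 for Gm8774.

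Klri1 and Depp1 were the 2 genes near Ogg1 that rose. Klri1, which encodes a lectin-like receptor of natural killer cells, lies on chromosome 6 from 129697218 to 129717132, 16.4 Mb away. It had 13, 5 and 8 counts in the Mutyh-/- libraries and 159, 62 and 90 counts in the DKO libraries, or 0.168, 0.0631 and 0.103 CPM against 1.76, 1.03 and 1.46. The groups were far apart at a low level, with a log2 fold change of 3.66 (SE 0.37, adjusted p = 0.00501). Depp1, a FOXO target linked to autophagy, had 1.14, 0.934 and 1.24 CPM in Mutyh-/- and 2.14, 3.42 and 3.45 in DKO (1.43, SE 0.23, adjusted p = 0.0371). Klri1 passed without each of the 6 libraries in turn, whereas Depp1 did not without Mutyh-/- replicate 1 (0.191), Mutyh-/- replicate 2 (0.131), DKO replicate 2 (0.131) or DKO replicate 3 (0.0554). Of the 13 settings that tested Klri1, it was called in 11.

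In Ogg1-/- against WT, the log2 fold changes pointed the same way at all 12 genes. Of the 12, 10 were also DEGs in the same direction in Ogg1-/- against WT, a comparison that shares no library with DKO against Mutyh-/- and called 73 genes (0.229% of those tested). The log2 fold changes on the Mutyh-null and the WT background were -1.23 and -1.23 for Ninj2, -1.49 and -1.53 for Tex52, 3.66 and 3.39 for Klri1 and -0.61 and -0.94 for Wnt5b. Rhno1 (-0.25, adjusted p = 0.197) and Gm8774 (-2.58, adjusted p = 0.0893) did not pass in Ogg1-/- against WT. A test of the difference between the backgrounds gave its lowest adjusted p among the 12 at Rhno1 (-0.28, adjusted p = 0.562), which does not show that the effects are equal.

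**Figure D2:**
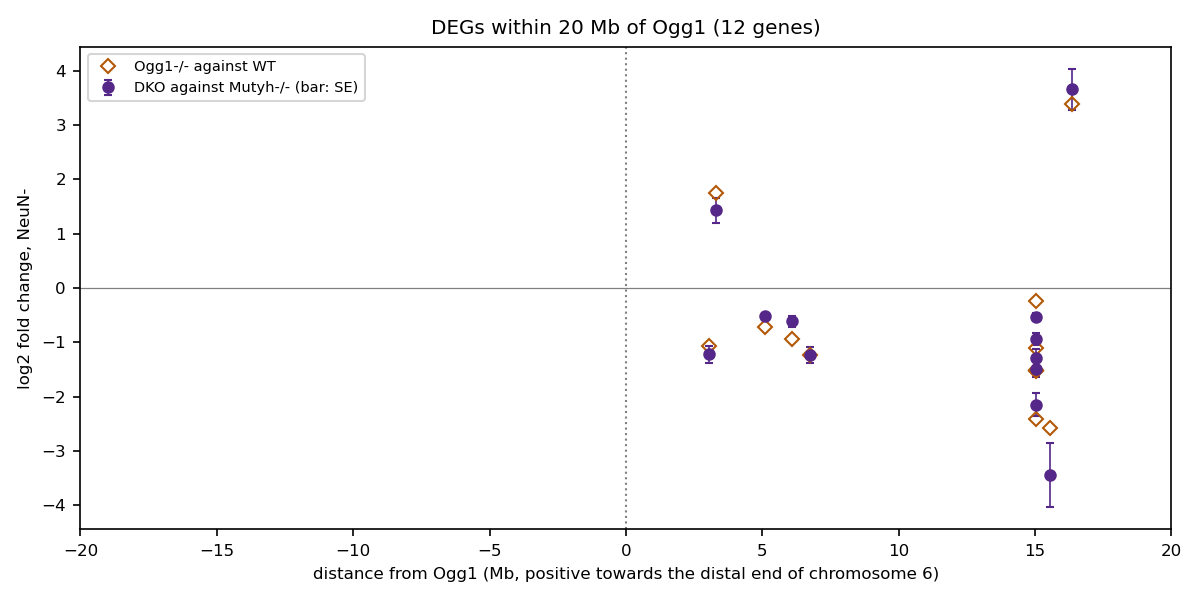
Log2 fold change of the 12 DEGs within 20 Mb of Ogg1, by distance from Ogg1 (Mb, positive towards the distal end of chromosome 6), for DKO against Mutyh-/- (filled, bars are SE) and Ogg1-/- against WT (open), in NeuN- nuclei. All 12 lie between 3.05 and 16.4 Mb on the distal side, with the open and the filled point of each gene on the same side of 0.

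On chromosome 4, 11 DEGs fell in a stretch of 653 kb, from 41809083 to 42461867. The stretch holds repeated gene copies, among them copies of Ccl21, the chemokine that draws lymphocytes and dendritic cells bearing CCR7. All 11 were lower in DKO, with log2 fold changes from -2.67 to -0.61. They set the bounds of the stretch, in which 23 of the 27 genes tested were lower, the 11 included. Among all 31863 genes tested, 15378 were lower. Gm17167, the most abundant of the 11, had 152, 159.7 and 139 CPM in Mutyh-/- and 34.2, 32.7 and 65.9 in DKO (-1.77, SE 0.21, adjusted p = 0.00850). Gm13303, on chromosome 4 from 42025429 to 42026712, had 9.18, 10.5 and 9.72 CPM in Mutyh-/- and 3.20, 2.52 and 4.68 in DKO (-1.50, SE 0.17, adjusted p = 0.00794). In both genes the 3 Mutyh-/- libraries lay close together, and DKO replicate 3 was the highest of the DKO libraries. Gm13303 passed without each of the 6 libraries in turn, and the other 10 genes did not without Mutyh-/- replicate 1, with adjusted p from 0.0603 for Gm17167 to 0.185 for Gm3883. Without DKO replicate 2, only Gm13303, Gm5859 and Gm17167 passed, and adjusted p reached 0.153 for Gm3883. Gm10601, Gm13301, Gm21093, Gm3893, Gm13302 and Gm3883 also did not pass without Mutyh-/- replicate 2. Gm13301, Gm21093, Gm3893, Gm13302, Gm13307 and Gm3883 did not pass without DKO replicate 1, nor did Gm3883 without Mutyh-/- replicate 3 (0.0527).

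The single copies cannot be told apart with certainty, since the handling of reads that align to several places is not stated. Every stretch of 100 bases in the transcripts of Gm13303 and Gm21093 is also found in a gene elsewhere, the latter chosen after its values were seen, and the share was 97.5% for Gm3893, also chosen so, and 51.5% for Gm17167, the lowest of the 11. Summed over the 11 genes, the level was 85.0, 90.2 and 101 CPM in WT, 342, 345 and 341 in Mutyh-/-, 1173, 1268 and 1043 in Ogg1-/- and 103, 95.5 and 166 in DKO. How far shared reads affect this sum was not tested, and its genes also share stretches with genes outside it, such as Gm3892. Mutyh-/- and Ogg1-/- stood clear of WT and of each other, whereas DKO replicate 2 lay within the WT range, DKO replicate 1 just above it and DKO replicate 3 between WT and Mutyh-/-. Mean levels relative to WT were 3.72 in Mutyh-/-, 12.6 in Ogg1-/- and 1.32 in DKO. DKO replicates 1, 2 and 3 were at 1.12, 1.04 and 1.80 of the WT mean.

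Ccl21d and Gm50470, chosen after their values were seen, had no position in the annotation used and followed the same course. Ccl21d had 2.19, 2.12 and 3.37 CPM in Mutyh-/- and 0.828, 0.531 and 1.17 in DKO (-1.60, adjusted p = 0.0371), and Gm50470 had 13.5, 13.02 and 14.7 against 1.28, 1.36 and 5.33 (-2.40, adjusted p = 0.0316). Neither passed without Mutyh-/- replicate 1 (adjusted p = 0.128 and 0.157) or Mutyh-/- replicate 2 (0.0617 and 0.0782). Both also lost the call without DKO replicate 1 (0.109 and 0.0730) or DKO replicate 2 (0.129 and 0.126). Ccl21b (-1.39, adjusted p = 0.0536) and Gm13304, also chosen after their values were seen, lie in the stretch and did not pass (Gm13304 -1.31, adjusted p = 0.1001). To show how alike these copies are, their promoters are printed as the RefSeq table gives them for GRCm38.p6, from 250 bases before to 50 after the start, plus strand. Ccl21d spans chr4:41903363-41903662 and Gm13304 chr4:42114537-42114836, both within the stretch, and 299 of the 300 bases are the same. The capital marks the differing base, T143C from Ccl21d to Gm13304, counted from 1 at the 5′ end. The promoter of Gm10591 has the same difference from Ccl21d in this table, where 13 of the 39 DEGs have an entry.
Ccl21d: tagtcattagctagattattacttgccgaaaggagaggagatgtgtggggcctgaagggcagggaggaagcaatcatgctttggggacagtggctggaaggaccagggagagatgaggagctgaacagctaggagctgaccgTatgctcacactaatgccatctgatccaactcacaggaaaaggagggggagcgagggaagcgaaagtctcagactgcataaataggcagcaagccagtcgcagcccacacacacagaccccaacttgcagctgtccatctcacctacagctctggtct
Gm13304: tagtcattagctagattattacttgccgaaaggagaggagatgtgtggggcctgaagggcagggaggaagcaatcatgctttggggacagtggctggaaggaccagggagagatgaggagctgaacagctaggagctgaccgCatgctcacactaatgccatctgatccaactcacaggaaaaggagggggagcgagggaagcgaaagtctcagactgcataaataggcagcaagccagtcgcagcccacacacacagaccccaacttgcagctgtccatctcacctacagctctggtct

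On chromosome 14, 4 DEGs lay between 69241848 and 69500390 and set the bounds of this stretch. The 13 genes tested in it, these 4 included, were all lower in DKO, as were 15378 of all 31863 genes tested. Slc25a37, which encodes mitoferrin, the carrier that brings iron into mitochondria, had 108, 86.0 and 118 CPM in Mutyh-/- and 30.3, 32.2 and 54.5 in DKO (-1.42, SE 0.18, adjusted p = 0.0115). In WT it had 29.7, 28.9 and 31.2 CPM and in Ogg1-/- 33.7, 33.4 and 32.3. Mutyh-/- was therefore the group that stood apart, at 3.47 times the WT mean, whereas DKO replicates 1 and 2 lay near WT and DKO replicate 3 between WT and Mutyh-/-. It did not pass without Mutyh-/- replicate 1 (adjusted p = 0.0737) or DKO replicate 2 (0.0710). Gm27222, which is antisense to Slc25a37, and Gm20236 and Gm37094, chosen after their values were seen, had log2 fold changes of -2.05, -1.78 and -1.75 with adjusted p from 0.0176 to 0.0292. None of these genes passed without Mutyh-/- replicate 1 (adjusted p = 0.111, 0.147 and 0.128). The same held without DKO replicate 1 (0.0501, 0.0864 and 0.0738) or DKO replicate 2 (0.0799, 0.120 and 0.117). Gm20236 and Gm37094 also did not pass without Mutyh-/- replicate 2 (0.0612 and 0.0534). Gm20236 lies within Slc25a37 on the same strand and has the same transcript sequence as Gm37094, and Gm27222 is repeated in another gene, so these counts are uncertain. Of Slc25a37 itself, 6.11% of 100-base stretches are found in a gene elsewhere. Summed over the 4 genes, the level was 37.1, 35.7 and 37.3 CPM in WT, 143, 114 and 157 in Mutyh-/-, 40.7, 40.6 and 37.8 in Ogg1-/- and 37.1, 38.7 and 69.6 in DKO.

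DKO replicate 3 thus stood apart from the other DKO libraries at both stretches, and it did so in NeuN+ nuclei as well. There, the chromosome 4 sum was 865, 906 and 830.5 CPM in Mutyh-/- and 326, 335 and 467 in DKO, and the chromosome 14 sum 79.4, 62.6 and 96.3 in Mutyh-/- and 18.9, 18.4 and 39.6 in DKO. Mutyh RNA of DKO replicate 3 in NeuN- nuclei, at 10.1 CPM, was also nearer to Mutyh-/- than that of the other 2. At Tex52 and Ninj2 near Ogg1, by contrast, DKO replicate 3 was the lowest of all 6 libraries, although at Wnt5b it was the highest of the DKO libraries. Why this replicate differs was not tested.

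**Figure D3:**
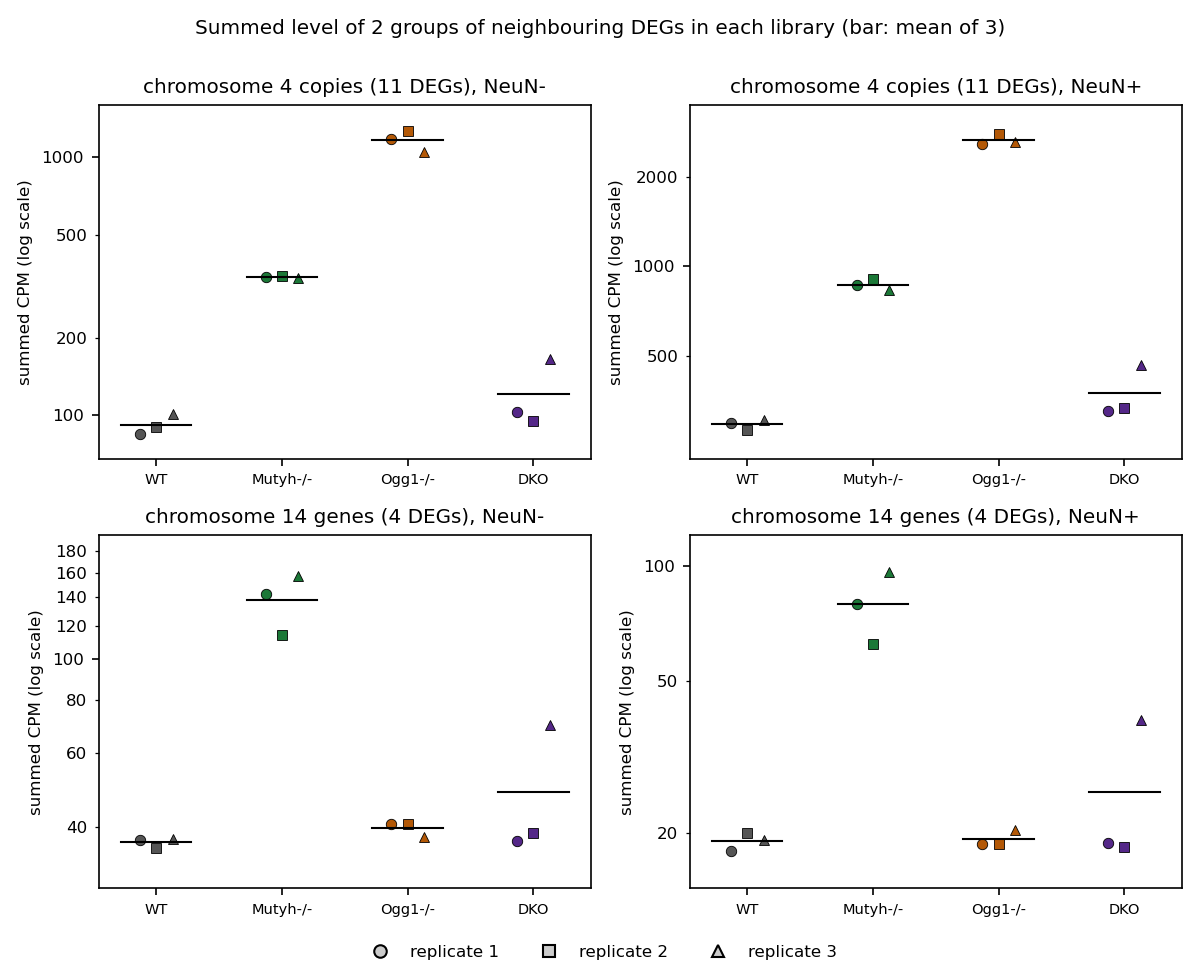
Summed level (CPM, log scale) of the 11 DEGs of the chromosome 4 stretch and the 4 DEGs of the chromosome 14 stretch in each of the 24 libraries, by genotype and fraction; points are libraries, shaped by replicate, and bars are means of 3. DKO replicate 3 is the highest DKO library in each panel, and Ogg1-/- is highest at chromosome 4 but near WT at chromosome 14.

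The other 10 DEGs were scattered, with 7 higher and 3 lower in DKO. Lama3, the laminin alpha 3 chain of basement membranes, lies on chromosome 18 from 12333819 to 12583013 and had 19.4, 21.1 and 20.7 CPM in Mutyh-/- and 33.7, 47.1 and 35.2 in DKO (0.92, SE 0.14, adjusted p = 0.0274). Otc, the mitochondrial urea cycle enzyme ornithine transcarbamylase, lies on chromosome X from 10252305 to 10321024 and had 3.16, 3.13 and 4.42 CPM against 10.4, 7.24 and 6.53 (1.18, SE 0.18, adjusted p = 0.0274). In WT, Lama3 had 40.3, 35.4 and 38.5 CPM and Otc 6.15, 6.17 and 6.87, so that the Mutyh-/- libraries were the low ones and DKO overlapped WT. The pseudogene Pisd-ps2 rose by 0.65 (adjusted p = 0.0274) and the RNAs BC055402, Gm9750 and Gm26843 by 0.83, 0.51 and 0.72. Gm29880 had the largest fitted rise among these 10 (2.24) but only 4, 7 and 5 counts in Mutyh-/- and 30, 19 and 21 in DKO. The lower genes, chosen after their values were seen, were Sspo, which encodes SCO-spondin, with 51.5, 44.5 and 46.8 CPM against 29.1, 33.0 and 32.9 (-0.59, adjusted p = 0.0273), the carnosine synthase gene Carns1 (-0.50, adjusted p = 0.0298) and Ly6g6f (-0.62, adjusted p = 0.0385). Of the 100-base stretches of Carns1, 37.0% also lie in overlapping genes, so its counts are uncertain. A further 8 genes had an adjusted p under 0.05 with a smaller difference, among them Hsd11b1, which regenerates active glucocorticoid (0.44, adjusted p = 0.0316), and the transporter gene Slco3a1 (-0.37, adjusted p = 0.0292), both chosen after their values were seen. All 10 lost the call without Mutyh-/- replicate 1 (adjusted p from 0.128 for Gm29880 to 0.258 for Gm26843) and without DKO replicate 2 (0.0710 to 0.140 for the same genes). Sspo lies on chromosome 6 at -64.8 Mb from Ogg1, where a negative distance is proximal.

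Relative to WT, the mean of DKO was nearer than the mean of Mutyh-/- for 0 of the 12 DEGs near Ogg1, 11 of 11 on chromosome 4, 4 of 4 on chromosome 14, 2 of 2 without a position and 8 of the 10 elsewhere. Since the genes were called for a difference between DKO and Mutyh-/-, at least 1 of these groups had to lie away from WT. The same count over all genes tested was not made. Genes within the chromosome 4 and chromosome 14 stretches also share transcript sequence, so their counts are not of separate results.

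Whether DKO against Mutyh-/- differed from Ogg1-/- against WT was tested as the difference of both effects in the 12 NeuN- libraries. Here too, loss of Ogg1 cannot be told apart from other differences between the mice of the genotypes. The difference passed an adjusted p under 0.05 for 39 of 31863 genes (0.122%), with 9 positive and 30 negative values. At an unadjusted p under 0.05 there were 2550 genes. Of these genes, 17 were among the 39 DEGs and 22 were not. By place, 20 lay in or within 1 Mb of the chromosome 4 stretch, 4 had no position, 8 lay on chromosome 14, 2 within Mid1 on chromosome X and 5 elsewhere. At the chromosome 4 copies the effects pointed in opposite directions. Gm17081 had a log2 fold change of -2.41 on the Mutyh-null background and 5.24 on the WT background, a difference of -7.66 (adjusted p = 4.00e-06), and Gm13303 had -1.50 and 3.51, a difference of -5.02 (adjusted p = 1.36e-06). Of the 39 DEGs, 13 were called in the opposite direction in Ogg1-/- against WT, 11 on chromosome 4 and the 2 without a position.

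Slc25a37 (-1.56, adjusted p = 0.0432), Lama3 (1.20, adjusted p = 0.0388), Sspo (-0.76, adjusted p = 0.0388) and Gm29880 (2.51, adjusted p = 0.0424) also differed, close to the threshold. On the WT background their log2 fold changes were 0.15, -0.28, 0.17 and -0.26. C4b, the complement component C4 and a gene of reactive glia, had 73.9, 68.9 and 76.4 CPM in WT, 95.8, 94.3 and 87.0 in Ogg1-/-, 117, 109.7 and 147 in Mutyh-/- and 77.6, 93.7 and 84.5 in DKO. All libraries of the 3 knockout groups lay above all WT libraries, and DKO overlapped Ogg1-/- and lay below Mutyh-/-. The effects of Ogg1 loss were -0.55 (adjusted p = 0.0668) on the Mutyh-null and 0.34 (adjusted p = 0.217) on the WT background. Neither passed, but their difference did (-0.89, adjusted p = 0.0392). Epsti1 on chromosome 14, a gene of the interferon response chosen after its values were seen, differed between backgrounds by 0.94 (adjusted p = 0.00490) with 0.11 in DKO against Mutyh-/-. The difference between backgrounds passed for 71 genes without DKO replicate 3, for 95 by the likelihood ratio test and for 111 by DESeq2.

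**Figure D4:**
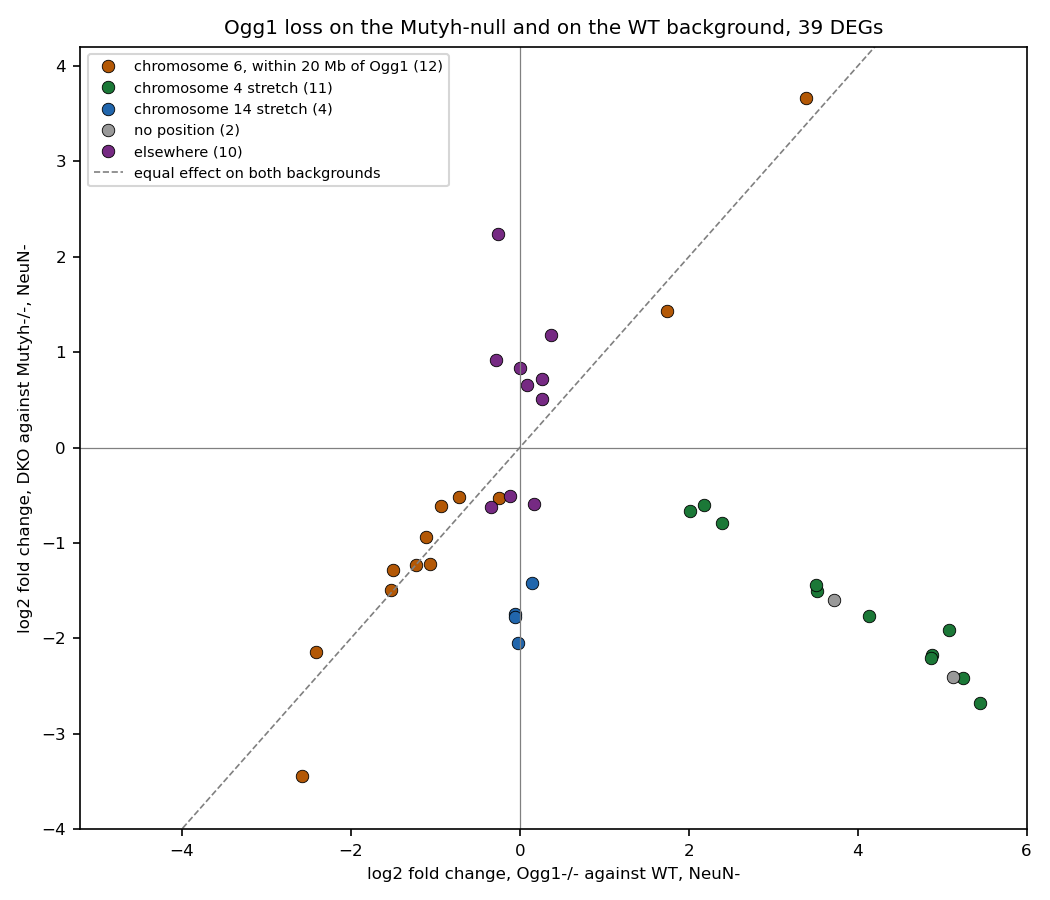
Log2 fold change of the 39 DEGs in DKO against Mutyh-/- (vertical) and in Ogg1-/- against WT (horizontal), NeuN- nuclei, each point a gene coloured by place; the dashed line marks equal effects. Genes near Ogg1 lie on the same side of 0 on both axes, the chromosome 4 copies lie between 2.01 and 5.45 on the horizontal axis and below 0 on the vertical one, and the chromosome 14 genes lie near 0 on the horizontal axis.

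In NeuN+ nuclei, DKO against Mutyh-/- called 42 of 30132 genes (0.139%), 10 higher and 32 lower, and 74 without DKO replicate 3. Of the 39 DEGs of NeuN-, 33 were tested in NeuN+, and 18 of them were called in the same direction, which is 46.2% of the NeuN- DEGs and 42.9% of the NeuN+ DEGs. The 18 were 9 copies of chromosome 4, the 2 genes without a position, the 4 genes of chromosome 14, Tex52 and Gm15862 near Ogg1, and Pisd-ps2. Slc25a37 had 60.1, 47.6 and 72.6 CPM in Mutyh-/- and 15.5, 15.4 and 30.7 in DKO of NeuN+ (-1.55, adjusted p = 0.00243), beside -1.42 in NeuN-. Pisd-ps2 had 1.13 (adjusted p = 0.00213) beside 0.65, and Zfp248 had -0.48 (adjusted p = 0.00175), just short of the fold limit. Ninj2 was scarce in NeuN+, with 1.19, 1.44 and 1.22 CPM in Mutyh-/- and 0.971, 1.08 and 0.862 in DKO (-0.40, adjusted p = 0.667), and Klri1 was not tested there because its counts were too low. Lama3 had 0.27 (adjusted p = 0.652) in NeuN+, but its difference between fractions was not past the threshold (0.63, adjusted p = 0.471).

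Over all 24 libraries and 33523 genes, the effect differed between the fractions at an adjusted p under 0.05 for 3 genes (0.00895%), with 2492 at an unadjusted p under 0.05 and 14 by the likelihood ratio test. This fit and the counts shared with NeuN+ take the libraries of both fractions as independent, although across genes the deviations of same-numbered libraries correlated at 0.17, 0.14 and 0.23 in DKO and 0.06, 0.13 and 0.24 in Mutyh-/-. With a block for each genotype and replicate number the test called 4 genes, among them all 3. All 3 lie distal to Ogg1 on chromosome 6, none is among the 39 DEGs, and all were chosen after their values were seen. Tspan11, a tetraspanin, had 5.10, 5.88 and 11.9 CPM in Mutyh-/- and 8.75, 8.38 and 13.4 in DKO of NeuN-, whereas NeuN+ had 0.604, 0.649 and 0.819 and 7.41, 9.88 and 8.15. The groups overlapped in NeuN- and were far apart in NeuN+, with log2 fold changes of 0.41 and 3.60 and a difference of -3.21 (adjusted p = 3.18e-04). Gm15870, which overlaps Tspan11, differed by -3.18 (adjusted p = 4.53e-04). Slc25a18, a mitochondrial glutamate carrier of astrocytes, had 57.4, 54.3 and 51.5 CPM in Mutyh-/- and 39.9, 45.0 and 43.8 in DKO of NeuN- but 10.2, 10.2 and 9.77 and 11.2, 13.5 and 13.1 in NeuN+, a difference of -0.69 (adjusted p = 0.0189). Its DKO libraries were the lower ones in NeuN- and the higher ones in NeuN+, and neither effect passed on its own.

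No member of the 28 gene lists with tested genes was a DEG. Of their 542 tested genes, edgeR's quasi-likelihood test called 0, with 101 at an unadjusted p under 0.05 (46 higher and 55 lower, against 5.79% higher and 5.21% lower among all genes tested), while the likelihood ratio test called 5 and DESeq2 called 4. Lists are therefore described by their members' signs and medians, beside a median of 0.01 and 13.4% of genes without overlap among all genes tested. No member of the cell type lists was at 0 over the NeuN- libraries. In bulk RNA, fewer cells of a type and less RNA per cell cannot be told apart.

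Of the 23 markers of mature oligodendrocytes, 21 were lower in DKO, 14 of them at an unadjusted p under 0.05, against 5.21% of all genes, with a median log2 fold change of -0.23, and 8 did not overlap. Without DKO replicate 3 the median was -0.15. Their sum was 11635, 11502 and 9779.7 CPM in Mutyh-/- and 9652, 10097 and 8312 in DKO. Mutyh-/- replicate 3 fell within the DKO range, so the sums overlapped. In WT the sum was 11807, 10726 and 10868 CPM and in Ogg1-/- 9881, 9195 and 9123. Mbp, myelin basic protein, had 2616, 2488 and 2207 CPM in Mutyh-/- and 2264, 2276 and 1869 in DKO (-0.19, adjusted p = 0.441), and Mobp, another myelin protein gene, had -0.35 (adjusted p = 0.366). The precursor list had 13 of 16 negative values, 5 at an unadjusted p under 0.05, and a median of -0.10, which was -0.05 with library totals alone and -0.05 without Mutyh-/- replicate 1, with sums of 5479, 5267 and 5134 against 5062, 5419 and 4975 CPM. Olig1, Olig2 and Sox10, all with negative values, are members of both oligodendrocyte lists, and Olig1 and Sox10 are among these 5.

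Of 20 astrocyte markers, 17 were higher in DKO, 4 at an unadjusted p under 0.05, with a median of 0.13 and 6 without overlap. The median was 0.22 without Mutyh-/- replicate 2 and 0.04 without Mutyh-/- replicate 3. Their sums, 6109, 6709 and 5063 CPM in Mutyh-/- and 6341, 6301 and 6387 in DKO, overlapped, and the most abundant member was Slc1a2, the glutamate transporter GLT-1 (0.08, adjusted p = 0.828, turning to -0.03 without Mutyh-/- replicate 3). Microglial markers had a median of -0.04 with 17 of 20 negative, 1 at an unadjusted p under 0.05, and sums of 1420.3, 1289.7 and 1283 against 1335, 1423 and 1099 CPM. The microglial sums overlapped, and the median turned to 0.01 with library totals alone and to 0.04 without DKO replicate 3. Endothelial and mural markers had a median of 0.20 with 18 of 20 positive, 7 at an unadjusted p under 0.05 against 5.79% of all genes. Their sums were 196, 200.2 and 183 against 197, 218 and 253, with Pdgfrb, a receptor of mural cells, as the most abundant (0.19). The median was 0.32 without DKO replicate 1 and 0.12 without DKO replicate 3. Markers of fibroblasts and meninges had a median of 0.33 with 7 of 10 positive, 0 of them at an unadjusted p under 0.05 in edgeR's quasi-likelihood test, and sums of 464, 424 and 431 against 398, 402 and 489, so that the summed level was 0.977 times that of Mutyh-/-. The most abundant, Ptgds, had -0.11, and the median was 0.52 without Mutyh-/- replicate 3 and 0.53 without DKO replicate 2, and turned to -0.08 without DKO replicate 3. Neuronal markers had a median of -0.16 with 16 of 18 negative, 5 at an unadjusted p under 0.05, and the median was -0.10 without Mutyh-/- replicate 3. Their sums were 1493, 1494 and 1617 against 1333, 1375 and 1546, with Map2 as the most abundant (0.00). In each of these lists the sums of the groups overlapped.

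Choroid plexus and ependyma markers varied widely between libraries of DKO and of Ogg1-/-. All 12 had positive log2 fold changes, 7 at an unadjusted p under 0.05 against 5.79% of all genes, with a median of 1.59 and 1 without overlap. The sums were 36.6, 40.0 and 33.3 CPM in Mutyh-/-, 24.9, 91.0 and 294 in DKO, 19.9, 126 and 130.3 in Ogg1-/- and 48.8, 54.3 and 82.3 in WT. The Mutyh-/- libraries thus lay close together and below all WT libraries. Ttr, transthyretin, the most abundant, had 16.1, 13.2 and 12.8 CPM in Mutyh-/- and 4.13, 50.9 and 165 in DKO (2.39, SE 1.00, adjusted p = 0.420). DKO replicate 1 lay below all Mutyh-/- libraries and DKO replicate 3 far above them. Without DKO replicate 3 the median of the list was 0.52 and the log2 fold change of Ttr 0.95, and with a replicate block that of Ttr was 1.52. In NeuN+ the sum in DKO was 23.6, 23.8 and 27.0 CPM, so that DKO replicate 3 stood out for these markers in NeuN- but little in NeuN+, while it stood out at the chromosome 4 and chromosome 14 stretches in both fractions. The part of these markers in the list of DEGs was not tested.

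**Figure D5:**
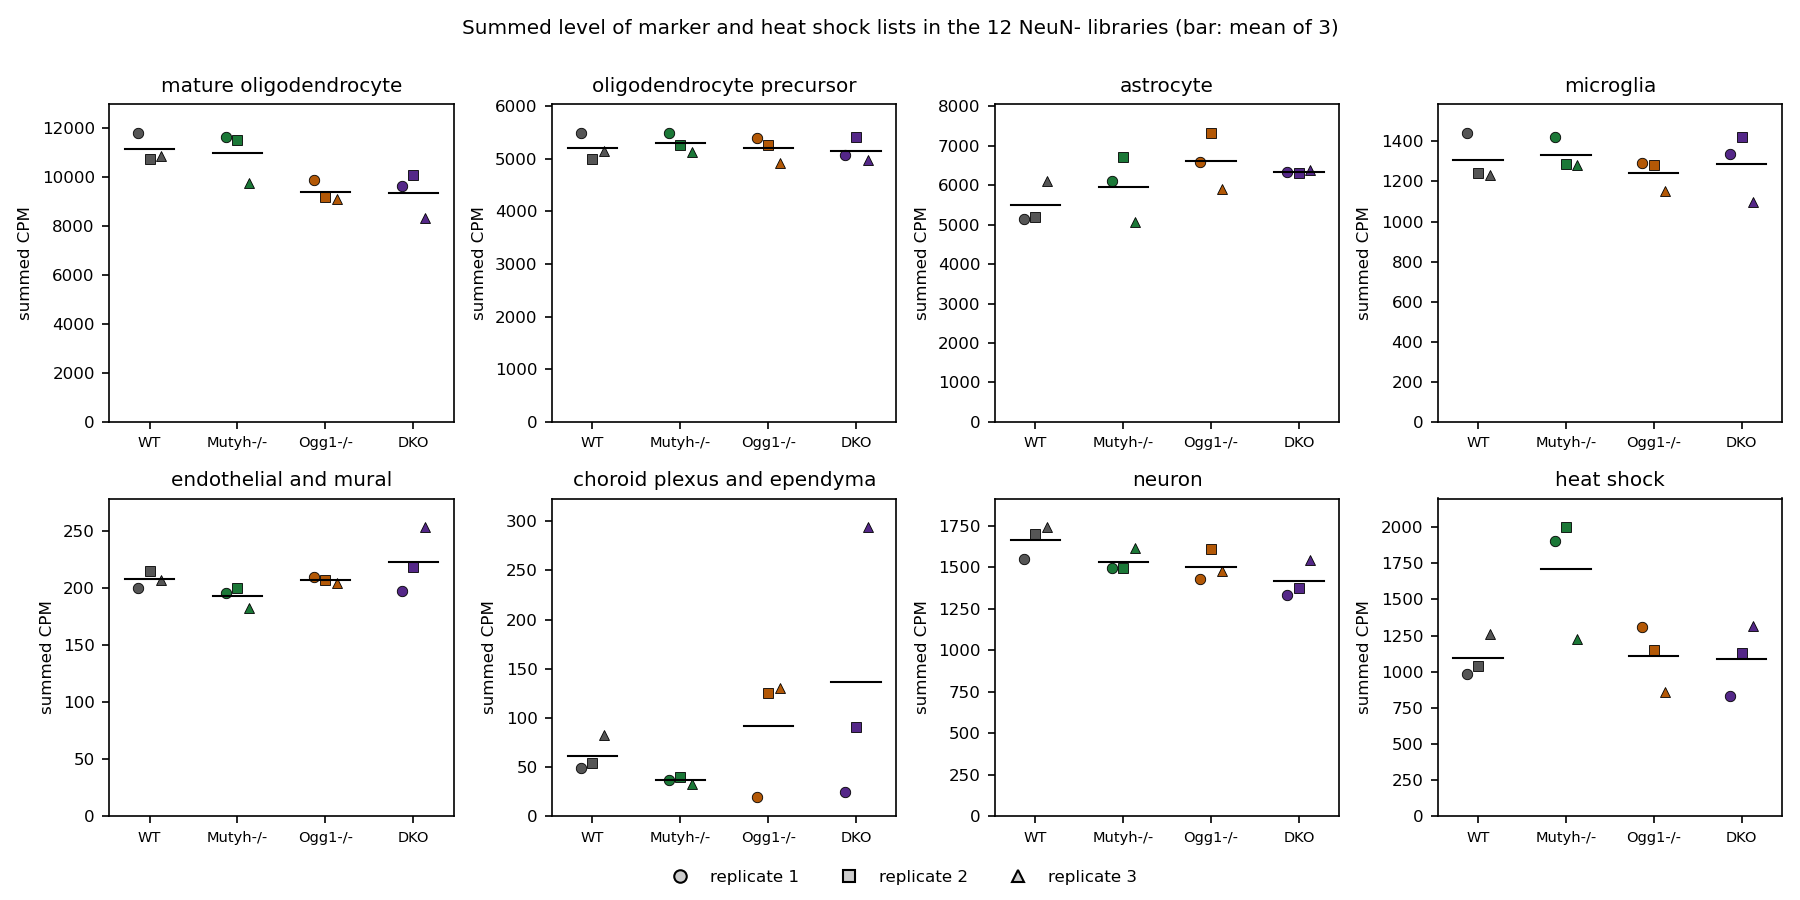
Summed level (CPM) of 7 cell type marker lists and the heat shock list in each of the 12 NeuN- libraries, by genotype; points are libraries, shaped by replicate, and bars are means of 3. Choroid plexus and ependyma markers reach 294 CPM in DKO replicate 3 against 24.9 in DKO replicate 1, and heat shock genes are highest in Mutyh-/- replicates 1 and 2.

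Heat shock genes, the chaperones that refold proteins, were lower in DKO for 18 of 21 members, 9 at an unadjusted p under 0.05 (all lower, as were 5.21% of all genes), with a median of -0.46, which was -0.30 without DKO replicate 1. Their sums were 1904, 1998 and 1227 CPM in Mutyh-/-, 830.2, 1128 and 1316 in DKO, 987, 1040.4 and 1257 in WT and 1311, 1151 and 858 in Ogg1-/-. Mutyh-/- replicates 1 and 2 were high, and Mutyh-/- replicate 3 lay within the range of the other genotypes. Hsp90aa1 had 302, 308 and 215 CPM in Mutyh-/- and 119, 167 and 182 in DKO (-0.82, SE 0.20, adjusted p = 0.197), Hsp90ab1 -0.79 (adjusted p = 0.229) and Hspa8 -0.68 (adjusted p = 0.371). In NeuN+ the sums were 1189, 1246 and 904 CPM in Mutyh-/- and 797, 919 and 960 in DKO, again with Mutyh-/- replicate 3 below the other 2. The glucocorticoid responsive list, with a median of -0.10, also varied between libraries, and its median was -0.04 without Mutyh-/- replicate 2 and -0.22 without DKO replicate 3. Its member Zbtb16 had 311, 427 and 147 CPM in Mutyh-/- and 266, 99.2 and 301 in DKO, in overlapping order.

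Differences between the groups in repair genes were small. Of 11 DNA glycosylases, 1 did not overlap, Mutyh itself, and the median was 0.06, or 0.02 without Mutyh-/- replicate 2 and 0.13 without Mutyh-/- replicate 3. Neil1, another glycosylase for oxidized bases, had 7.28, 7.47 and 9.38 CPM in Mutyh-/- and 8.66, 8.35 and 7.97 in DKO (0.05, adjusted p = 0.900, turning to -0.02 without Mutyh-/- replicate 1), and Tdg had 0.00. Of 18 genes acting after the glycosylase, 15 were lower in DKO, 5 at an unadjusted p under 0.05 against 5.21% of all genes. Groups did not overlap for 7 of them (38.9%). The list had a median of -0.09, which was -0.04 with library totals alone and -0.04 without DKO replicate 3. The gap polymerase gene Polb had 61.0, 61.1 and 58.8 CPM against 56.4, 57.4 and 55.4 (-0.10, SE 0.04, adjusted p = 0.439), and Parg, which removes poly(ADP-ribose), had -0.09 (adjusted p = 0.505). The summed level of the list was 482, 473 and 478 CPM in Mutyh-/- and 465, 453 and 448 in DKO, without overlap but with a small gap. Genes that clear oxidized nucleotides had a median of 0.00, which was 0.09 without DKO replicate 3, and Nudt1, which hydrolyses 8-oxo-dGTP, had 0.04 (adjusted p = 0.884). Antioxidant genes had a median of -0.01 with 14 of 28 in each direction, and genes of p53 and its targets -0.02 with 0 of 23 without overlap.

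Of 34 genes of the interferon response, 27 were higher in DKO, 6 higher and 1 lower at an unadjusted p under 0.05, with a median of 0.20 and 9 without overlap (26.5%). The median was 0.13 without Mutyh-/- replicate 1. Their sums were 229.9, 234 and 252 CPM in Mutyh-/- and 252, 270.1 and 236 in DKO and overlapped. Xaf1, an interferon-induced gene, had -0.18 (adjusted p = 0.581) with overlap. The 6 higher ones at an unadjusted p under 0.05 were the RNA sensor genes Ddx58 (0.27, adjusted p = 0.234) and Ifih1 (0.22, adjusted p = 0.404), the GTPase genes Igtp (0.54, adjusted p = 0.267), Irgm1 (0.31, adjusted p = 0.338) and Gbp3 (0.31, adjusted p = 0.421), and the class I antigen gene H2-K1 (0.24, adjusted p = 0.320), of which Ifih1 overlapped. The lower one was Usp18, a protease that removes ISG15 (-0.28, adjusted p = 0.336), without overlap. These 7 were chosen after their values were seen. Of 25 tested reactive glia genes, 16 were higher and 9 lower, with a median of 0.10, and at an unadjusted p under 0.05 there were 3 in each direction. Groups did not overlap for 4 higher and 3 lower members, and the median was 0.04 without DKO replicate 3. The higher ones at an unadjusted p under 0.05 were the oncostatin M receptor gene Osmr (0.41, adjusted p = 0.283), Axl (0.19, adjusted p = 0.345) and the filament gene Vim (0.42, adjusted p = 0.348), of which Axl and Vim overlapped. The lower ones, none of which overlapped, were C4b (-0.55), the serine protease inhibitor gene Serpina3n, with 5.41, 4.49 and 5.43 CPM in Mutyh-/- and 3.49, 3.30 and 3.16 in DKO (-0.62, adjusted p = 0.0701), and Clec7a, the beta-glucan receptor of myeloid cells, with 0.698, 0.568 and 0.936 against 0.254, 0.232 and 0.194 (-1.67, adjusted p = 0.227). Osmr, Axl, Vim, Serpina3n and Clec7a were chosen after their values were seen. Gfap, a filament protein of astrocytes, had 48.1, 53.5 and 49.5 CPM against 53.9, 64.9 and 54.3 (0.20, adjusted p = 0.483).

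Chromatin and metabolic lists had medians near 0. These were -0.04 for PRC2 and its cofactors, -0.03 for DNA methylation genes, 0.07 for cholesterol synthesis and uptake, 0.07 for the circadian clock, -0.04 for immediate early genes, 0.00 for respiratory complex I and -0.03 for glycolysis. Glutamate and GABA receptors had -0.05, semaphorins with their plexin and neuropilin receptors 0.03, and abundant nuclear RNAs such as Malat1 -0.10. With library totals alone the medians of PRC2 and its cofactors, DNA methylation, immediate early genes, complex I, glycolysis and the glutamate and GABA receptors were above 0. The circadian clock median turned to -0.08 without DKO replicate 1, and that of cholesterol synthesis and uptake was 0.02 without Mutyh-/- replicate 2 and 0.13 without Mutyh-/- replicate 3. Immediate early genes turned to 0.09 without DKO replicate 1, and also without DKO replicate 2 or Mutyh-/- replicate 3, and glycolysis turned to 0.02 and complex I to 0.03 without Mutyh-/- replicate 2. The 13 mitochondrially encoded genes listed were not tested because 0 of them were found in the file.

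A short list held genes that the study shows in non-neuronal nuclei. Its member Grm7, a metabotropic glutamate receptor gene at -1.76 Mb from Ogg1, had 424, 351 and 415 CPM in Mutyh-/- and 337, 316 and 273 in DKO. All DKO libraries lay below the Mutyh-/- libraries, with a log2 fold change of -0.36 (SE 0.08, adjusted p = 0.160) that did not pass, beside -0.87 (adjusted p = 2.19e-04) in Ogg1-/- against WT. Oaf had 22.7, 25.3 and 21.9 CPM against 28.3, 26.4 and 27.0 (0.23, adjusted p = 0.305). Npr3, a clearance receptor of natriuretic peptides, had 4.204, 4.86 and 7.04 against 7.94, 5.36 and 12.6 (0.69, adjusted p = 0.405), and Wnt6 (0.50, adjusted p = 0.730) and Bdnf (-0.07, adjusted p = 0.946) were low in these nuclei. Without DKO replicate 3 Npr3 had 0.32 and Wnt6 turned to -0.08, and without Mutyh-/- replicate 3 Bdnf turned to 0.21. The 5 genes had a median of 0.23, which turned to -0.06 without DKO replicate 3, and a summed level in DKO of 0.812 times that of Mutyh-/-, mostly Grm7. The study picked Grm7, Bdnf, Npr3 and Wnt6 with these samples and shows Oaf as a glial gene in its chromatin data, so the list is not independent evidence. Rbfox3, which encodes NeuN, had 85.8, 80.6 and 95.5 CPM in Mutyh-/- and 63.9, 65.4 and 90.1 in DKO (-0.26, adjusted p = 0.513).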

How the data were processed

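Nuclear RNA of NeuN+ and NeuN- hippocampal nuclei from WT, Mutyh-/-, Ogg1-/- and DKO mice was measured by paired-end total RNA sequencing in 24 libraries, 3 per genotype and fraction. The values used are the read pair counts per gene that the authors deposited, in 1 table per fraction. The authors aligned the reads to GRCm38 (mm10) with HISAT2 2.1.0 and SAMtools 1.10 and counted them with featureCounts on the Ensembl 102 annotation. Settings for strand, overlapping genes and reads with several alignments are not stated, so the counts of overlapping, antisense and copied genes are uncertain.

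Genes kept by filterByExpr in the 12 NeuN- libraries (31863 of 55254) were tested with edgeR 4.0.16 in R 4.3.3 (TMM scaling, 1 mean per genotype, quasi-likelihood test, Benjamini-Hochberg adjustment over all genes tested), with a biological coefficient of variation of 0.124. DEGs had an adjusted p under 0.05 and differed by over 0.5 on the log2 scale. The difference between backgrounds was a contrast in the same fit, NeuN+ had a fit of its own, and the difference between fractions was tested in 1 fit of 24 libraries. Precision is set by 3 libraries per group and by totals of 60250937 to 87940724 counts in DKO. Replicates were checked for duplication, and at least 95.7% of genes had unequal counts in every pair. Positions came from GENCODE vM21 by symbol for 97.0% of the genes tested, and promoters from RefSeq.

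Named genes were Ogg1, Mutyh and Camk1, up to 12 DEGs per direction with the smallest adjusted p and groups that did not overlap, every DEG within 20 Mb of Ogg1 or in a list, the 3 most abundant genes of each list, and Grm7, Bdnf, Npr3, Wnt6, Oaf and Rbfox3. Genes outside this rule were picked once their values were known. Some genes that the rule names are not reported here. The members and lists were chosen with earlier results of these data known. Alternatives tried were RLE factors (as in DESeq2), library totals, other filters, the likelihood ratio test, DESeq2 1.42.0, the replicate number as a block, a fit of 6 libraries, other fold limits, leaving out each replicate and leaving out regions. The scripts were tested on simulated data.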

Additional observations from a re-analysis of the deposited data

Results flagged for a closer look

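A test of the difference itself between the Mutyh-null and the WT background passed at an adjusted p under 0.05 for 17 DEGs of DKO against Mutyh-/- and, among other genes named, for C4b of the reactive glia list, Epsti1 of the interferon response list and 3 further gene copies of chromosome 4, and each value is the log2 effect of Ogg1 loss in DKO against Mutyh-/- minus that in Ogg1-/- against WT. On chromosome 4 it was -5.02 for Gm13303, -4.94 for Gm5859, -5.9 for Gm17167, -7.66 for Gm17081, -8.13 for Gm10601, -7.05 for Gm13301, -2.68 for Gm21093, -7 for Gm3893, -7.08 for Gm13302, -2.78 for Gm13307 and -3.19 for Gm3883, and among the copies that were not DEGs -4.78 for Ccl21b, -4.48 for Gm13304 and -4.32 for Gm10591. For the genes without a position in the annotation used it was -7.54 for Gm50470 and -5.32 for Ccl21d, whose RefSeq promoter lies within the chromosome 4 stretch. On chromosome 14 it was -1.56 for Slc25a37 and 0.94 for Epsti1. Elsewhere it was 2.51 for Gm29880, which had few counts, -0.76 for Sspo, 1.2 for Lama3 and -0.89 for C4b. The effect in NeuN- minus that in NeuN+ passed for Tspan11 (-3.21), Gm15870 (-3.18) and Slc25a18 (-0.69).

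In the chromosome 4 genes and the 2 without a position, Ogg1-/- lay above WT while DKO lay below Mutyh-/-. The 11 genes on chromosome 4 share much of their transcript sequence with other genes, so they are not 11 separate results. Slc25a37, Lama3, Sspo and Gm29880 had small log2 fold changes in Ogg1-/- against WT (0.15, -0.28, 0.17 and -0.26), and their values differ mainly through DKO against Mutyh-/-.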

How the results depend on the processing

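Of the 39 DEGs of DKO against Mutyh-/- in NeuN- nuclei, the same 39 were called with RLE size factors, which gave 39, and with the likelihood ratio test, which gave 160, and 36 were among the 146 of DESeq2. With library totals alone the count was 31, with 12 higher and 19 lower in place of 9 and 30, and the median log2 fold change of all genes was 0.06. Testing every gene with a count above 0 gave 73, a minimum of 10 counts in every library 37, no fold limit 47, an absolute log2 fold change above 1 24, and leaving out genes within 10 Mb of Ogg1 33. A fit of the 6 libraries alone, which has fewer libraries to estimate the spread from, gave 2. Leaving out each replicate gave 4 to 89 DEGs: 4 without Mutyh-/- replicate 1, 19 without Mutyh-/- replicate 2, 89 without Mutyh-/- replicate 3, 26 without DKO replicate 1, 9 without DKO replicate 2 and 80 without DKO replicate 3. The cause was not tested. Of the 39, 36 were called without DKO replicate 3 and 35 without Mutyh-/- replicate 3. Among alternatives chosen after seeing the data, leaving out replicate 3 of both groups gave 286, of which 37 were shared, and leaving out the stretches of chromosomes 4, 6 and 14 that hold more than 1 DEG, which takes away small p-values by construction, gave 0 by edgeR's quasi-likelihood test, with 3452 at an unadjusted p under 0.05, 100 by the likelihood ratio test and 96 by DESeq2, while 12 of the 39 lay outside these stretches with p-values adjusted over all genes. In NeuN+, also chosen after seeing the data, the 42 DEGs became 74 without DKO replicate 3, of which 41 were shared.

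The 39 genes whose effect of Ogg1 loss differed between backgrounds numbered 39 with RLE size factors, 35 with library totals, 45 and 38 with the other filters, 95 by the likelihood ratio test, 111 by DESeq2 and 27 to 71 when each replicate was left out, with 71 without DKO replicate 3. The cause was not tested. The 3 genes whose effect differed between fractions numbered 14 by the likelihood ratio test, 3 with RLE size factors, 2 with a minimum of 10 counts and 2 to 3 when each replicate was left out.

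Replicate numbers did not pair the libraries of DKO and Mutyh-/-: the deviations of same-numbered libraries from their group means correlated at -0.03, 0.07 and 0.05 across genes, and not every library correlated best with its own number. Under a block for the replicate number, the counts were 49 DEGs, of which 36 were shared, 33 genes for the difference between backgrounds and 4 for the difference between fractions. Between the NeuN- and NeuN+ libraries of a genotype, same-numbered libraries correlated at 0.17, 0.14 and 0.23 in DKO and 0.06, 0.13 and 0.24 in Mutyh-/-.

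Under the 14 settings, the log2 fold changes of the 39 DEGs kept their direction in all 543 values recomputed, and in 171 of them the gene no longer passed. Of 1246 values of 89 other named genes, 6 passed that had not, and 16 changed sign with a shift of at least the SE. Shifts without a change of sign were not counted, such as that of Ttr, at 2.39 as reported and 0.95 at its lowest. Of 392 list medians, 33 moved by more than the spread between DKO libraries. With 3 libraries per group of unclear origin and the spread shared over 12 libraries, small differences such as those of Wnt5b and Carns1, each called in 7 of 14 settings, and genes with few counts such as Gm8774, called in 4 of 13, are less certain.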
